A study of Homo sapiens with 10 samples.

Results

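Loss of the SWI/SNF ATPase *SMARCA4* was compared directly with loss of the ISWI ATPase *SMARCA1* in VCaP cells, an androgen-responsive prostate cancer cell line. Both sides of the comparison had been transfected with a targeting siRNA. The libraries were chosen by their labels. They were the 4 *SMARCA4* knockdown libraries (siRNA A and siRNA B, 2 replicates each) and the 4 *SMARCA1* knockdown libraries (siRNA A and siRNA C, 2 replicates each), 8 of the 10 libraries of the series, all poly(A) RNA-seq. Cells received 30 pmol of siRNA with Lipofectamine RNAiMAX and were harvested 72 h later. The other 2 libraries, labelled as control, stayed out of the fit and are quoted to show where a level lay in cells without either knockdown. The labels do not say whether the control cells received any siRNA, at what dose, or when they were harvested. Where both knockdowns differ from the controls, loss of the target cannot be told apart from transfection or harvest time. In the study, both ATPases were examined as partners of the lncRNA *IGF1R-AS1*. VCaP carries the TMPRSS2-ERG fusion. The knockdowns were transient, and the protein left in the cells at harvest is not measured here.

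SWI/SNF and ISWI are families of ATP-dependent chromatin remodelers. SWI/SNF complexes, built around *SMARCA4* or its paralog *SMARCA2*, slide and evict nucleosomes and keep enhancers and promoters accessible, and in prostate cancer cells they open enhancers that FOXA1 uses. ISWI complexes, built around *SMARCA1* or *SMARCA5*, space nucleosomes into regular arrays and serve transcription, replication and the binding of factors such as CTCF.

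The siRNA sequences listed for both targets are shown here since the whole comparison rests on them. Capitals mark the bases that pair with, or copy, the downstream exon where a sequence spans an exon junction, and lower case marks the rest. The *SMARCA4* sequences are complementary to the mRNA and the *SMARCA1* sequences run in the sense of the mRNA.
SMARCA4-siRNA-1#: CAAUCAUGUACUUCCAACGGAUcuugg
SMARCA4-siRNA-2#: ugggaagaauucuaucaagaagcucaa
SMARCA1-siRNA-1#: ggaagacaauaggcuauaagGUUCC
SMARCA1-siRNA-2#: ggauuguagaaagagcugagauaaa
In GRCh38, the first *SMARCA4* sequence spanned the junction of coding exons 18 and 19 of 35 (chr19:11019697-11021746), and the second lay within exon 24 (chr19:11027813-11027839). The first *SMARCA1* sequence spanned coding exons 19 and 20 of 25 (chrX:129471322-129480720), and the second lay within exon 15 (chrX:129490092-129490116). Which numbered sequence was used in which lettered library is not stated.

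Total counts lay between 24396501 and 34667965 in the 8 knockdown libraries. Levels are given in CPM, the edgeR measure of a gene's share of its library's counts, scaled by TMM factors. Libraries are named by target, siRNA and replicate, with S4-A1 for replicate 1 of *SMARCA4* siRNA A and S1-C2 for replicate 2 of *SMARCA1* siRNA C. Values follow the order S4-A1, S4-A2, S4-B1 and S4-B2 for *SMARCA4* knockdown and S1-A1, S1-A2, S1-C1 and S1-C2 for *SMARCA1* knockdown. Where a gene has 0 counts, up to 3 counts remain possible from counting error alone, which is 0.0865 to 0.123 CPM depending on the library. The 12 luminal prostate markers, *FOXA1*, *KLK3* and *FOLH1* among them, summed to between 9123 and 9534 CPM in *SMARCA4* knockdown and between 7761 and 8685 CPM in *SMARCA1* knockdown. Of 8 fibroblast markers, 5 were tested, and the list summed to between 18.6 and 35.2 CPM in *SMARCA4* and between 37.3 and 55.2 CPM in *SMARCA1* knockdown, mostly from *LUM* (log2 fold change -0.97). The 5 markers went both ways, with 3 log2 fold changes above 0, 2 below and a median of 0.34. Of 8 leukocyte markers, 2 were tested and 3 had no count in any library, and the list summed to between 2.39 and 15.95 CPM against between 9.10 and 23.6 CPM, mostly from *LYZ*. Endothelial markers summed to at most 3.26 CPM. The part of these markers in the results was not tested. In RNA from bulk cells, fewer cells of a type and less RNA per cell cannot be told apart.

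The target separated the libraries along the leading axis of variation. On the first principal component (47.1% of variance), the 4 *SMARCA4* knockdown libraries scored between 13.9 and 55.1 and the 4 *SMARCA1* knockdown libraries between -44.1 and -16.3. Of the sum of squares over the genes tested, 43.1% lay between the targets, 29.3% between the siRNAs of a target and 27.6% between replicates of a siRNA. Replicates of *SMARCA1* siRNA C were close, with a chi-square of 3.80 per gene where sampling noise alone gives about 1, whereas those of *SMARCA1* siRNA A differed by 60.6 per gene. The replicate 1 library of *SMARCA1* siRNA A stood apart in its transcript makeup. In the top quartile of summed exon length its median log2 deviation from the mean of the 8 libraries was -0.209. In the bottom quartile it was 0.266. No label says that replicates came from separate cultures. The p-values rest on the spread between replicates of a siRNA, which may be technical. They leave out the spread between the siRNAs of a target.

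**Figure D1:**
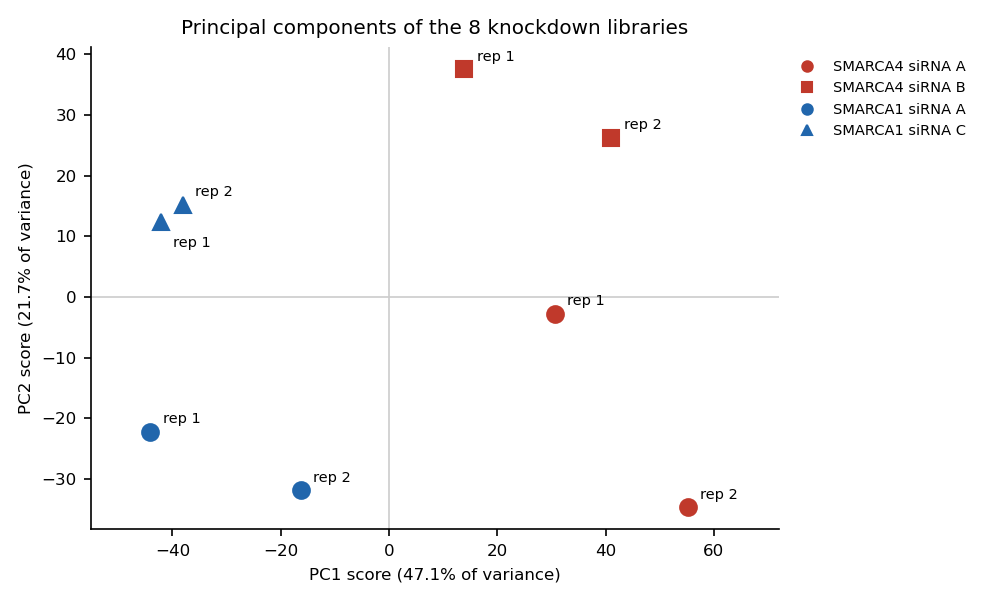
Scores of the 8 knockdown libraries on the first and second principal components of log2 CPM, coloured by target and shaped by siRNA. The targets lie on opposite sides of 0 on the first component (47.1% of variance), and the siRNAs and replicates of a target spread along the second (21.7%).

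Each targeted mRNA was low in its own knockdown and abundant in the other. Under its own siRNAs *SMARCA4* (GRCh38 chromosome 19, 10960932 to 11079426) measured 25.2, 23.2, 18.5 and 13.3 CPM. It was at 248, 229.6, 228 and 237 CPM in *SMARCA1* knockdown, where it stayed close to the controls (243 and 269 CPM). The groups did not overlap, and the log2 fold change of *SMARCA4* against *SMARCA1* knockdown was -3.59 (SE 0.12, adjusted p = 8.0e-06, edgeR's quasi-likelihood test, used for each comparison below). Under its own siRNAs *SMARCA1* (chromosome X, 129446501 to 129523500) measured 3.38, 1.75, 3.19 and 2.84 CPM. In cells with *SMARCA4* knocked down it reached 67.3, 83.8, 57.1 and 60.6 CPM, above the 32.4 and 31.6 CPM of the controls. Its log2 fold change was 4.58 (SE 0.19, adjusted p = 3.0e-05), and both calls held with each library left out.

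The paralogs differed far less than the targets. *SMARCA2*, the alternative SWI/SNF ATPase, was at 133, 148, 111 and 129 CPM in *SMARCA4* knockdown and at 85.9, 113, 109.6 and 105 CPM in *SMARCA1* knockdown (log2 fold change 0.33, SE 0.11, adjusted p = 0.042). Its groups overlapped at a single pair of libraries, and the call was lost when any of 6 libraries was left out (S1-C1, S1-C2, S4-A1, S4-A2, S4-B1 and S4-B2, adjusted p up to 0.15). *SMARCA5*, the alternative ISWI ATPase, was at 324, 229, 345 and 365 CPM in *SMARCA4* knockdown against 198, 288, 320.2 and 318 CPM in *SMARCA1* knockdown and did not pass the threshold (log2 fold change 0.17, SE 0.14, adjusted p = 0.36). Per kilobase of exon, the mean level of *SMARCA2* in *SMARCA4* knockdown was 7.01 CPM against 1.29 CPM for *SMARCA4*. On the same scale *SMARCA5* in *SMARCA1* knockdown was at 34.5 CPM against 0.640 CPM for *SMARCA1*.

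Partner subunits moved in both directions. Among 27 tested SWI/SNF subunits, 5 were higher in *SMARCA4* than in *SMARCA1* knockdown (*SMARCA2*, *ARID1A*, *ARID1B*, *BICRA* and *BICRAL*) and 3 were lower (*SMARCA4*, *SMARCD2* and *ACTL6A*), beside 14.3% called higher and 16.8% called lower over all genes tested. *ARID1A*, the largest DNA-binding subunit of the canonical complex, was at 529, 529, 553 and 592 CPM in *SMARCA4* knockdown. In *SMARCA1* knockdown it was at 279, 384, 387 and 407 CPM, so the groups did not overlap (log2 fold change 0.61, SE 0.11, adjusted p = 0.0041). *SMARCD2*, a core scaffold subunit, was lower with all 4 pairings of siRNAs, at 98.6, 85.9, 124 and 102 CPM against 177, 156, 161 and 173 CPM (log2 fold change -0.71, SE 0.10, adjusted p = 0.0016). *ACTL6A*, the actin-like subunit of proliferating cells, had a log2 fold change of -0.46 (SE 0.08, adjusted p = 0.0044). The call of *BICRA*, a subunit of the noncanonical complex, was lost without S1-C1 (adjusted p = 0.056). Those of its paralog *BICRAL* and of *ARID1B* were lost without any of 5 and 6 libraries, adjusted p up to 0.095 and 0.15, among them both *SMARCA1* siRNA C replicates, both *SMARCA4* siRNA A replicates and S4-B2, with S4-B1 added for *ARID1B*. The count of higher subunits was 1 without S1-C1, 2 without S1-C2, 2 without S4-A1, 2 without S4-A2, 2 without S4-B2, 3 without S4-B1 and 8 without S1-A2, and that of lower subunits 5 without S1-A1 and 5 without S1-A2.

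Of 14 tested ISWI genes, 2 were higher (*SMARCA1*, itself a siRNA target, and *BAZ2B*) and 4 lower (*POLE3*, *BAZ1B*, *BAZ1A* and *RBBP7*). These were shares of 14.3% and 28.6%, beside 14.3% and 16.8% of all genes. *POLE3*, a histone-fold subunit shared by the ISWI complex CHRAC and DNA polymerase epsilon, was the most separated of them after the target. It was at 106, 96.2, 83.6 and 69.7 CPM in *SMARCA4* knockdown and at 168, 143, 166 and 158 CPM in *SMARCA1* knockdown (log2 fold change -0.85, SE 0.10, adjusted p = 8.5e-04). *BAZ2B*, a bromodomain partner of the ISWI ATPases, was higher, at 47.4, 47.4, 55.4 and 63.6 CPM against 28.4, 38.95, 39.3 and 39.3 CPM (log2 fold change 0.55, SE 0.11, adjusted p = 0.0070). The partners *BAZ1B* (log2 fold change -0.43) and *BAZ1A* (-0.39) and the histone chaperone *RBBP7* (-0.26) differed by less. Their calls were lost without any of 2 libraries for *BAZ1B* (S1-C1 and S4-B2) and 6 for the others, which included both *SMARCA1* siRNA C and both *SMARCA4* siRNA B replicates for each, adjusted p up to 0.14 for *BAZ1A* and 0.15 for *RBBP7*. The count of lower ISWI genes was 1 without S1-C1, 1 without S4-B2, 2 without S1-C2, 2 without S4-A2 and 2 without S4-B1, and 4 were higher without S1-A2.

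**Figure D2:**
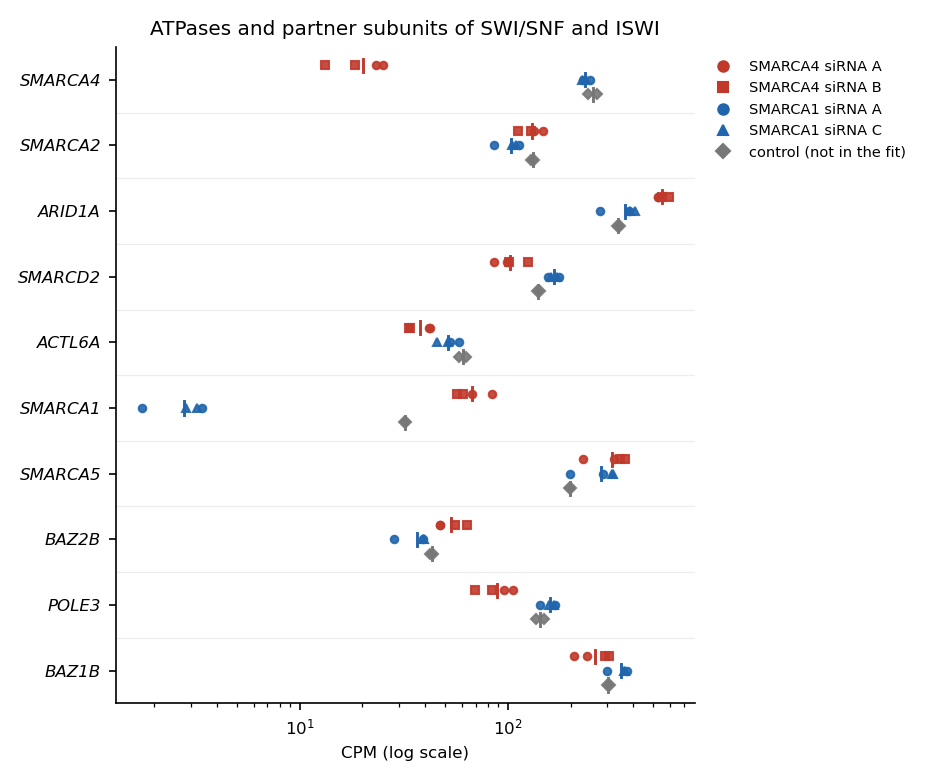
CPM on a log axis of the ATPases and partner subunits in each library, with group means as bars and the controls in grey. *SMARCA4* and *SMARCA1* each lie an order of magnitude lower under their own siRNAs, while *SMARCA2* and *SMARCA5* overlap between the knockdowns.

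The knockdowns differed at a large share of expressed genes, mostly by modest amounts. Of 16786 genes tested, 5219 (31.1%) passed an adjusted p of 0.05. Of these, 2403 (14.3%) were higher in *SMARCA4* knockdown and 2816 (16.8%) were higher in *SMARCA1* knockdown, with a median absolute log2 fold change of 0.61. A log2 fold change beyond 1 was reached by 552 and 604 of them, and 310 (1.85%) and 255 (1.52%) passed a test against a fold change of 1.5. In 2170 genes (12.9%) the 4 *SMARCA4* knockdown libraries lay above the other 4, and in 2339 (13.9%) below. Called in the comparison and in each of the 4 pairings of siRNAs were 426 genes higher (2.54%) and 328 lower (1.95%), 4.49% in all. The total was 2412 without S1-C1, 2721 without S1-C2, 2723 without S4-B2 and 3460 without S4-A2, and reached 7630 without S1-A2.

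The controls placed many of these differences on both sides. Among the 426 genes higher with each pairing, the control mean was nearer to *SMARCA4* knockdown for 257 and nearer to *SMARCA1* knockdown for 169, on the log scale. Among the 328 lower genes it was nearer to *SMARCA4* knockdown for 103 and nearer to *SMARCA1* knockdown for 225. Over the 2403 genes higher in the comparison, the control mean lay between the knockdown means for 1056, above both for 727 and below both for 620, and over the 2816 lower genes these counts were 969, 1016 and 831.

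Among protein-coding genes called with each pairing at 1 CPM or more, the rise other than *SMARCA1* that led was *CYP7A1*, the rate-limiting enzyme of bile acid synthesis. It was at 3.62, 3.68, 8.61 and 5.51 CPM in *SMARCA4* knockdown. In *SMARCA1* knockdown it was at 0.252, 0.162, 0.383 and 0.150 CPM (7, 4, 12 and 5 counts) and in the controls at 0 and 0.187 CPM, so it stood above a trace level in the *SMARCA4* knockdown libraries (log2 fold change 4.41, SE 0.29, adjusted p = 1.8e-04). *TTR*, the carrier of thyroxine and retinol-binding protein, was at 11.3, 19.4, 21.1 and 24.8 CPM against 4.86, 4.47, 3.23 and 2.48 CPM (log2 fold change 2.37, SE 0.19, adjusted p = 3.2e-04), with the controls in between at 8.99 and 8.29 CPM. *CYP4X1*, a cytochrome P450 (2.29), *CYSLTR1*, a cysteinyl leukotriene receptor (2.11), *PLEKHH2* (2.17) and *CDK5R2*, an activator of the neuronal kinase CDK5 (2.05), had control means below the *SMARCA4* knockdown mean too.

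For 6 of the 11 leading rises the control mean was nearer to *SMARCA4* knockdown on the log scale. *TTR* was among them by a narrow margin. *PEG10* (chromosome 7, 94656325 to 94669695), an imprinted gene derived from a retrotransposon, was at 728, 1035, 466 and 532 CPM in *SMARCA4* knockdown and at 102, 185, 168 and 181 CPM in *SMARCA1* knockdown (log2 fold change 2.07, SE 0.19, adjusted p = 4.5e-04). The controls had 487 and 480.1 CPM. *SLC9A3*, a sodium and hydrogen exchanger, was at 19.96, 29.6, 8.21 and 11.6 CPM against 2.41, 3.78, 4.15 and 4.37 CPM, with 12.9 and 14.8 CPM in the controls (log2 fold change 2.12, SE 0.20, adjusted p = 5.0e-04). *CLSTN2*, a synaptic adhesion protein (2.21), *CLUL1*, a clusterin-like gene (2.14), and *TMEM169* (2.22) had the same arrangement, with control means of 7.67, 2.48 and 1.77 CPM against 1.37, 0.593 and 0.457 CPM in *SMARCA1* knockdown. In none of these 11 genes did the libraries of the knockdowns overlap, which their selection by calls with each pairing favoured. Over all genes tested, the *SMARCA4* knockdown libraries lay above the others in 12.9%.

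Of the 11 leading falls other than *SMARCA4*, 9 had a control mean nearer to *SMARCA4* knockdown on the log scale. Among all 328 genes lower with each pairing, most went the other way, and only 103 had this arrangement. *DIO2* (chromosome 14, 80197526 to 80387757), the deiodinase that activates thyroid hormone, was at 1.84, 1.42, 2.08 and 2.12 CPM in *SMARCA1* knockdown. With *SMARCA4* knocked down it read 0.279, 0.126, 0.123 and 0.0702 CPM, which rested on 8, 4, 4 and 2 counts, and in the controls at 0.168 and 0.373 CPM (log2 fold change -3.68, SE 0.30, adjusted p = 3.2e-04). *PI3*, the elastase inhibitor elafin, was at 15.04, 7.72, 24.4 and 24.03 CPM in *SMARCA1* knockdown, at 3.55, 1.54, 3.66 and 1.16 CPM in *SMARCA4* knockdown and at 0.672 and 0.709 CPM in the controls (log2 fold change -2.74, SE 0.37, adjusted p = 0.0015). *COL17A1*, a hemidesmosomal collagen (-3.02), *KLK14*, a kallikrein protease (-2.95), *TFF2*, a trefoil peptide of mucosa (-2.31), and *PTH2R*, a parathyroid hormone receptor (-2.33), were of this kind. *GATA3*, a transcription factor of luminal epithelia, was at 3.42, 3.74, 3.35 and 3.53 CPM against 0.697, 0.503, 1.05 and 0.596 CPM, with 0.546 and 0.485 CPM in the controls (log2 fold change -2.31, SE 0.21, adjusted p = 4.2e-04).

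The exceptions were *CAMKV*, a kinase-like vesicle protein, and *SEMG2*, the seminal protein semenogelin. *CAMKV* was at 4.11, 3.37, 2.40 and 1.68 CPM in *SMARCA4* knockdown, 15.5, 12.5, 15.2 and 13.3 CPM in *SMARCA1* knockdown and 18.7 and 25.2 CPM in the controls (log2 fold change -2.35, SE 0.16, adjusted p = 1.8e-04), so both knockdowns lay below the controls and *SMARCA4* knockdown lowest. *SEMG2* was at 0.697, 0.503, 0.461 and 0.210 CPM against 3.71, 2.32, 2.49 and 2.42 CPM, with 1.34 and 1.42 CPM in the controls. *C4B* (-3.01) and *C4A* (-1.97), chosen after its values were seen, encode near-identical complement components, and the androgen-conjugating enzyme *UGT2B28* (-2.63) has close relatives including the pseudogene *UGT2B24P* (-2.55), so reads may be split between them and each value is uncertain.

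**Figure D3:**
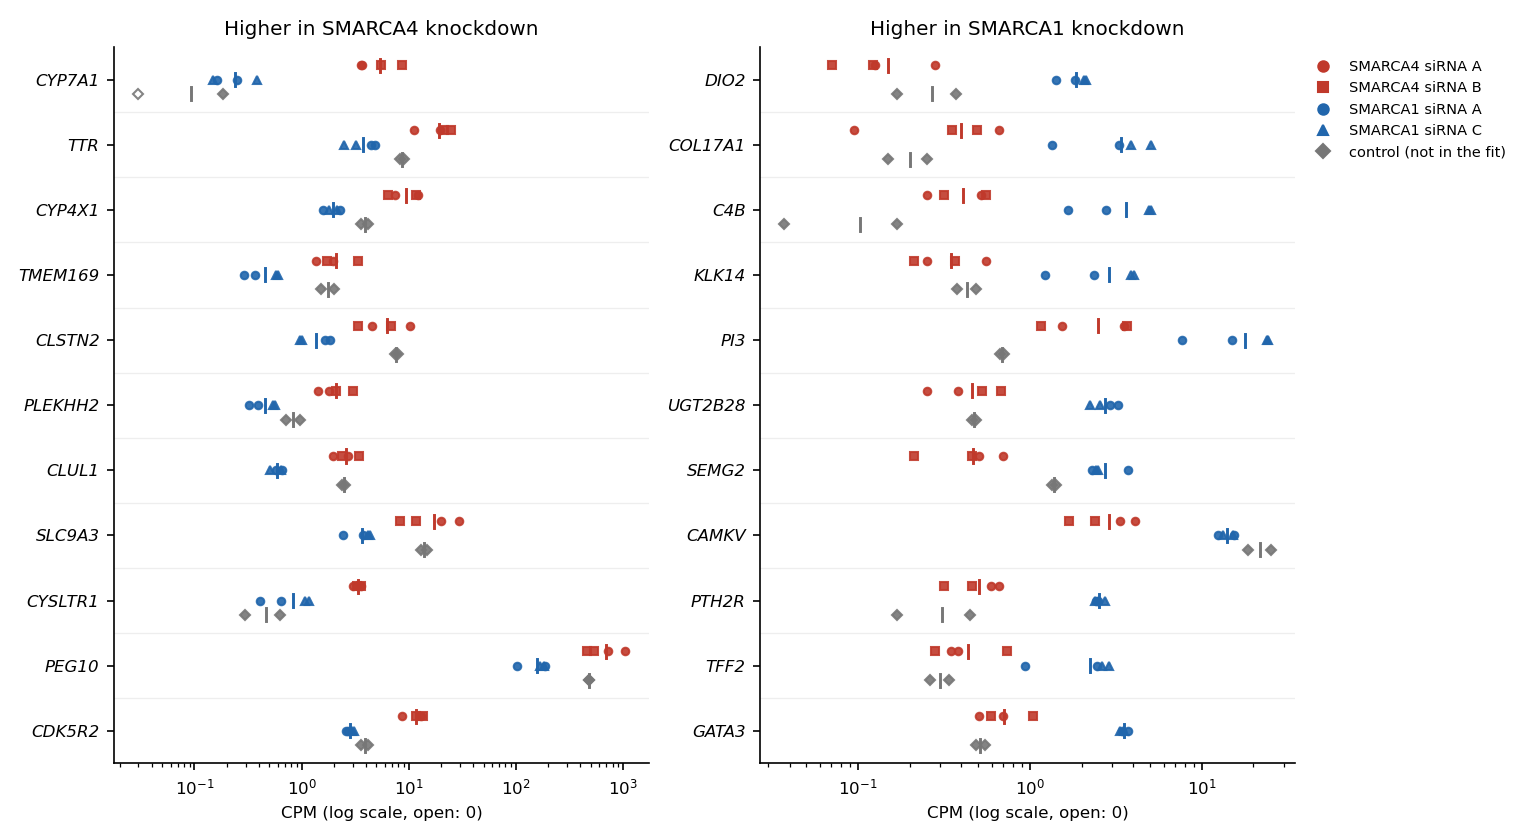
CPM on a log axis of the 11 leading rises (left) and 11 leading falls (right) in each library, with group means as bars, open symbols for 0 and controls in grey. The red and blue points of a gene do not overlap, which the choice of genes called with each pairing favoured. On the right the grey mean is nearer to the red one for 9 of 11 genes, against 103 of all 328 genes lower with each pairing.

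Androgen-regulated genes were higher in *SMARCA4* than in *SMARCA1* knockdown. Of 32 tested androgen-regulated genes, 18 were higher (56.25%) and 2 lower (6.25%, *CAMKK2* among these), beside 14.3% and 16.8% of all genes. The median log2 fold change of the 32 genes was 0.39, against -0.01 over all genes tested. With each pairing of siRNAs, 7 of the androgen-regulated genes were called higher. The summed level of the list was 19047, 21062, 18087 and 20156 CPM in *SMARCA4* knockdown and 14197, 14727, 14558 and 14128 CPM in *SMARCA1* knockdown, without overlap, and 17982 and 17948 CPM in the controls. The count of higher members ranged from 13 without S1-C1 to 21 without S1-A2, and was 19 without S1-A1.

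*SLC45A3*, the prostate antigen prostein, was at 1302, 1779, 1259.9 and 1651 CPM in *SMARCA4* knockdown and at 472, 496, 497 and 478 CPM in *SMARCA1* knockdown (log2 fold change 1.63, SE 0.13, adjusted p = 3.2e-04). The controls lay in between at 703 and 745 CPM. *ACP3*, prostatic acid phosphatase, was at 1063, 1528, 1116 and 1915 CPM against 533, 683, 391 and 367 CPM (log2 fold change 1.55, SE 0.19, adjusted p = 0.0011), with 1396 and 1328 CPM in the controls. Both genes separated the knockdowns completely, at a higher level in each *SMARCA4* library. *TMPRSS2* (0.65), the metalloreductases *STEAP1* (0.81) and *STEAP2* (1.12), and *FOLH1*, which encodes PSMA (0.93), moved the same way. *FOLH1* stayed below its control level in both knockdowns, at 94.6, 117, 154 and 209 and 64.2, 66.1, 78.95 and 84.6 CPM against 255 and 250.1 CPM. *KLK3*, which encodes PSA, differed little (log2 fold change 0.40, SE 0.11, adjusted p = 0.024) and lost its call without any of 5 libraries (S1-C1, S1-C2, S4-A2, S4-B1 and S4-B2, adjusted p up to 0.094).

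Of 19 lineage factors, 5 were higher, among them *EHF*, *SPDEF*, *FOXA1* and *GATA2*, and 2 lower (*GATA3* and *KLF5*), beside 14.3% and 16.8% of all genes. The count of higher factors was 2 without S1-C1, 3 without S1-C2 and 10 without S1-A2, and that of lower factors 1 without S4-B2. *FOXA1*, a pioneer factor of prostate enhancers, was at 1407, 1527, 1368 and 1337 CPM against 933, 1093, 1023 and 1144 CPM (log2 fold change 0.43, SE 0.09, adjusted p = 0.0083). *EHF*, an epithelial ETS factor, was at 614, 529, 608 and 566 CPM against 272, 407, 420.2 and 419 CPM (log2 fold change 0.62, SE 0.12, adjusted p = 0.0072). Single libraries decided several of these calls: *FOXA1* was lost without S1-C1 (adjusted p = 0.058), *KLF5* without S4-B2 (0.052), *SPDEF* without S1-C1 and S1-C2 (up to 0.067) and *GATA2* without any of 5 libraries (S1-C1, S1-C2, S4-A2, S4-B1 and S4-B2, up to 0.13). Of the androgen-regulated genes that were lower, *CAMKK2* (-0.41) lost its call without S1-C1 and S4-B1 (up to 0.061).

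Growth and ribosome genes were lower in *SMARCA4* knockdown. *MYC*, the transcription factor that drives ribosome production and nucleotide synthesis, was at 87.2, 102, 41.96 and 25.7 CPM in *SMARCA4* knockdown. In *SMARCA1* knockdown it was at 177, 188, 164 and 171 CPM and in the controls at 319.6 and 330.0 CPM, so both knockdowns were below the controls and siRNA B of *SMARCA4* was lowest (log2 fold change -1.62, SE 0.14, adjusted p = 4.2e-04). *PVT1*, the lncRNA gene beside it, was at 20.3, 16.6, 19.6 and 16.7 CPM against 25.9, 23.9, 30.7 and 28.3 CPM (log2 fold change -0.57, SE 0.10, adjusted p = 0.0054), with 19.5 and 21.01 CPM in the controls. Of 12 tested genes of the MYC network, 3 were lower (*MYC*, *PVT1* and the antagonist *MXD3*) and 1 higher (*MYCL*). These were shares of 25% and 8.33%, beside 16.8% and 14.3% of all genes. The calls of *MXD3* and *MYCL* were lost without S1-A1, S1-C1, S1-C2, S4-A1, S4-B1 and S4-B2, and without S1-C1, S1-C2, S4-A2 and S4-B2 (adjusted p up to 0.097 and 0.11).

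Of 56 tested ribosome biogenesis genes, 41 were lower in *SMARCA4* knockdown, against 16.8% of all genes tested, with a median log2 fold change of -0.44. None was higher (0 also at an unadjusted p under 0.05 and by DESeq2, which called 39 lower). Of the 41, 13 were called with each pairing of siRNAs. Their summed level was 5042, 4960, 4289 and 3876 CPM in *SMARCA4* knockdown, 6636, 6331, 6652 and 6321 CPM in *SMARCA1* knockdown and 7418 and 7571 CPM in the controls, so the groups did not overlap and the controls were highest. The count fell to 27 without S4-B2 and was 45 without S1-A1, the library that stood apart, and 1 member was called higher without S1-A2. *LYAR*, a nucleolar factor, was at 25.2, 22.7, 15.2 and 10.5 CPM against 49.2, 38.5, 44.01 and 39.5 CPM (log2 fold change -1.29, SE 0.14, adjusted p = 7.0e-04). *NOP16* was at 26.2, 24.6, 20.3 and 14.6 CPM against 49.2, 37.4, 46.2 and 42.7 CPM (log2 fold change -1.06, SE 0.13, adjusted p = 0.0012). *NCL*, the nucleolar protein nucleolin, was at 747, 683, 577 and 475 CPM against 994, 975, 1160.4 and 1037 CPM (log2 fold change -0.76, SE 0.09, adjusted p = 0.0011). In each of these 3 genes the lowest library was S4-B2.

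The promoters of ribosome biogenesis, nucleotide synthesis and chaperone genes were searched for the E-box CACGTG, the letters that MYC and its partner MAX bind, which reads the same on both strands. Of 47 ribosome biogenesis promoters in RefSeq (GRCh38.p14, 250 bases before to 50 after the start), 16 (34.0%) held it, against 9.88% of 11052 promoters of protein-coding genes tested and 7.43% of all 27305 promoters. It was in 4 of 18 promoters of purine and pyrimidine synthesis genes (22.2%) and 3 of 19 of heat shock and chaperonin genes (15.8%). A pair of promoters is shown, with the motif in capitals, and both were chosen because they hold it. Among such genes of the ribosome biogenesis and nucleotide synthesis lists, they fell most of those lower with each pairing of siRNAs. The motif lies at base 285 in *NME1* (chr17:51153309-51153608, plus strand) and at base 14 in *EBNA1BP2* (chr1:43172521-43172820, minus strand).
NME1: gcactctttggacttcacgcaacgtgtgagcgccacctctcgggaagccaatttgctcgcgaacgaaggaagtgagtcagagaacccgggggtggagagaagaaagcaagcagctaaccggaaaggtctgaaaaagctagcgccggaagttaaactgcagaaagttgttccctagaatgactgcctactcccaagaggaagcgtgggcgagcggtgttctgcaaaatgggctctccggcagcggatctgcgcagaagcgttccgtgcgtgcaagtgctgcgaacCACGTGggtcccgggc
EBNA1BP2: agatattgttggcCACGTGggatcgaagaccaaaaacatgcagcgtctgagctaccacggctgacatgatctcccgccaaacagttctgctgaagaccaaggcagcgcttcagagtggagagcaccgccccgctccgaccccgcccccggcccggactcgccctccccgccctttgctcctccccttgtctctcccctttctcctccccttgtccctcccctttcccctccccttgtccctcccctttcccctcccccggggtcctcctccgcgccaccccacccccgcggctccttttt
*NME1*, a nucleoside diphosphate kinase, was at 30.5, 28.3, 28.4 and 23.7 CPM in *SMARCA4* knockdown and at 76.1, 52.5, 58.99 and 58.3 CPM in *SMARCA1* knockdown (log2 fold change -1.15, SE 0.13, adjusted p = 8.4e-04). *EBNA1BP2*, a ribosome assembly factor, was at 30.2, 32.3, 27.1 and 23.9 CPM against 61.96, 50.04, 47.5 and 42.8 CPM (log2 fold change -0.83, SE 0.10, adjusted p = 0.0012). The match of letters is a description, and binding at these promoters was not measured. The shares cover the tested members of each list, called or not, so they do not depend on the fold changes. The share of promoters with the motif was not compared between called and uncalled genes. The part of MYC in the lower levels was not tested.

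Purine and pyrimidine synthesis followed, with 14 of 20 genes lower (70%, against 16.8% of all genes, median log2 fold change -0.40), 3 of them with each pairing of siRNAs. *IMPDH2*, which commits purines to guanine nucleotides, was at 130.2, 131, 115 and 97.9 CPM against 255, 204, 216 and 209 CPM (log2 fold change -0.90, SE 0.10, adjusted p = 8.0e-04). The count was 7 without S1-C1, 9 without S1-C2, 9 without S4-B1 and 9 without S4-B2. Of 12 polyamine genes, 6 were lower, among them the spermidine synthase *SRM* (-0.65) and the spermine oxidase *SMOX* (-0.70), and 1 was higher, *AMD1*, whose call was lost without S1-C1, S1-C2, S4-B1 and S4-B2 (adjusted p up to 0.10). The polyamine shares were 50% lower and 8.33% higher, beside 16.8% and 14.3% of all genes. The lower polyamine count was 3 without S1-C1.

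Cytosolic ribosomal proteins were lower in 60 of 79 tested genes, against 16.8% of all genes tested (median log2 fold change -0.44), and none was higher (0 also at an unadjusted p under 0.05 and by DESeq2). Of the 60, 0 were called with each pairing of siRNAs in edgeR's test (3 at an unadjusted p under 0.05), against 1.95% of all genes. The summed level was 32286, 40625, 25852 and 27002 CPM in *SMARCA4* knockdown, 50224, 42807, 37134 and 36523 CPM in *SMARCA1* knockdown and 71004 and 71260 CPM in the controls. Here the groups overlapped, at S4-A2 and the siRNA C libraries of *SMARCA1*, and the controls were far above both. *RPS21* was at 102, 144, 71.4 and 77.04 CPM against 219, 179, 154 and 142 CPM (log2 fold change -0.84, SE 0.13, adjusted p = 0.0024) and *RPL17* at 10.3, 9.47, 8.82 and 8.07 CPM against 21.1, 16.7, 16.4 and 13.2 CPM (log2 fold change -0.87, SE 0.13, adjusted p = 0.0019). Ribosomal protein genes have many processed pseudogenes, which can share their reads. The count of lower members was 22 without S1-C1, 27 without S1-C2, 29 without S4-B1, 32 without S4-B2 and 38 without S4-A1.

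Mitochondrial genes encoded in the nucleus were lower too. Against 16.8% of all genes, nuclear-encoded respiratory chain subunits were lower in 41 of 75 genes (median -0.33) and mitochondrial ribosomal proteins in 40 of 75 (median -0.32), with 1 of the latter higher (*MRPL44*, whose call was lost without any of 6 libraries, the siRNA C replicates of *SMARCA1* and the 4 *SMARCA4* libraries, adjusted p up to 0.15). *MRPS25* was at 28.2, 27.4, 28.6 and 25.1 CPM against 61.4, 47.1, 54.9 and 50.3 CPM (log2 fold change -0.97, SE 0.11, adjusted p = 8.4e-04), *MRPL12* had a log2 fold change of -0.91, and the ATP synthase subunit *ATP5F1D* one of -0.74. The 13 genes of the mitochondrial genome gave no call (at an unadjusted p under 0.05, 2 were higher and 1 lower, and DESeq2 called 0), with a median of 0.15. With each pairing of siRNAs, 0 respiratory chain genes (4 at an unadjusted p under 0.05) and 3 mitochondrial ribosomal protein genes were called lower. Counts of lower respiratory chain genes were 4 without S1-C1, 9 without S4-B2, 13 without S1-C2, 19 without S4-B1, 21 without S4-A1 and 27 without S4-A2. For mitochondrial ribosomal proteins the counts were 14 without S1-C1, 14 without S4-B2, 18 without S1-C2, 22 without S4-A1, 23 without S4-A2 and 26 without S4-B1.

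Chaperones were lower in 13 of 21 genes (median -0.45), with between 10 and 15 called when a library was left out. *HSPD1*, the mitochondrial chaperonin, was at 551, 481, 457 and 359.9 CPM against 844, 859, 915 and 902 CPM (log2 fold change -0.94, SE 0.10, adjusted p = 6.5e-04), and its partner *HSPE1* had a log2 fold change of -0.98. Splicing factors were lower in 26 of 54 genes, led by the core proteins *SNRPF* (-0.84) and *LSM6* (-0.77), and 13 of 32 proteasome subunits were lower, among them *PSMA7* (-0.60). Host genes of small nucleolar RNAs were lower in 14 of 23, with *SNHG8* at 26.4, 29.98, 21.5 and 19.3 CPM against 60.1, 45.3, 57.4 and 39.7 CPM (log2 fold change -1.08, SE 0.15, adjusted p = 0.0016) and *SNHG15* at a log2 fold change of -0.91. Translation factors gave 17 of 43 lower, including *EEF1B2* (-0.77) and the translation repressor *EIF4EBP1* (-0.75), and 2 higher. Of those 2, *EIF4A2*, a helicase of initiation, was at 509, 441, 519 and 461 CPM against 288, 281, 359 and 362 CPM (log2 fold change 0.59, SE 0.08, adjusted p = 0.0018), and the other was *EIF3H* (0.28), which lost its call without any of the same 6 libraries as *MRPL44* (adjusted p up to 0.18). Over all genes tested, 16.8% were lower and 14.3% higher. Lower shares were 61.9% for chaperones, 48.1% for splicing factors, 40.6% for the proteasome, 60.9% for host genes and 39.5% for translation factors. Of translation factors, 4.65% were higher. With each pairing of siRNAs, 3 chaperone, 3 splicing, 4 host and 4 translation factor genes were called lower, and 0 proteasome genes (8 at an unadjusted p under 0.05). Counts of lower splicing factors were 12 without S1-C1, 13 without S4-B2, 15 without S1-C2 and 17 without S4-A1. For the proteasome they were 5 without S1-C1, 5 without S4-B2, 8 without S1-C2 and 25 without S1-A2, for the host genes 8 without S1-C1 and 9 without S4-B2, and for translation factors 8 without S4-B2, 9 without S1-C1, 9 without S1-C2 and 10 without S4-B1.

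Gene length and base composition moved with the comparison. The summed exon length had a median of 6064 bases among genes higher in *SMARCA4* knockdown, 3910 among lower genes and 4651 among genes not called. From the bottom to the top quartile of exon length, the median log2 fold change was -0.16, -0.07, 0.01 and 0.12. From the bottom to the top quartile of GC content, it was 0.09, 0.02, -0.07 and -0.09. Single libraries differed in these trends, and S1-A1 deviated most. In the bottom and top quartiles of exon length, the median log2 deviation was 0.266 and -0.209 in S1-A1 but -0.013 and 0.053 in S1-A2. For GC content it was -0.216 and 0.220 in S1-A1 but 0.083 and -0.097 in S1-A2. The replicates of *SMARCA1* siRNA A thus ran in opposite directions. With the length trend removed, 42 ribosome biogenesis genes (median -0.48), 59 ribosomal protein genes (median -0.37), 35 respiratory chain genes (median -0.23) and 31 DNA replication genes were lower, and 19 androgen-regulated genes were higher.

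**Figure D4:**
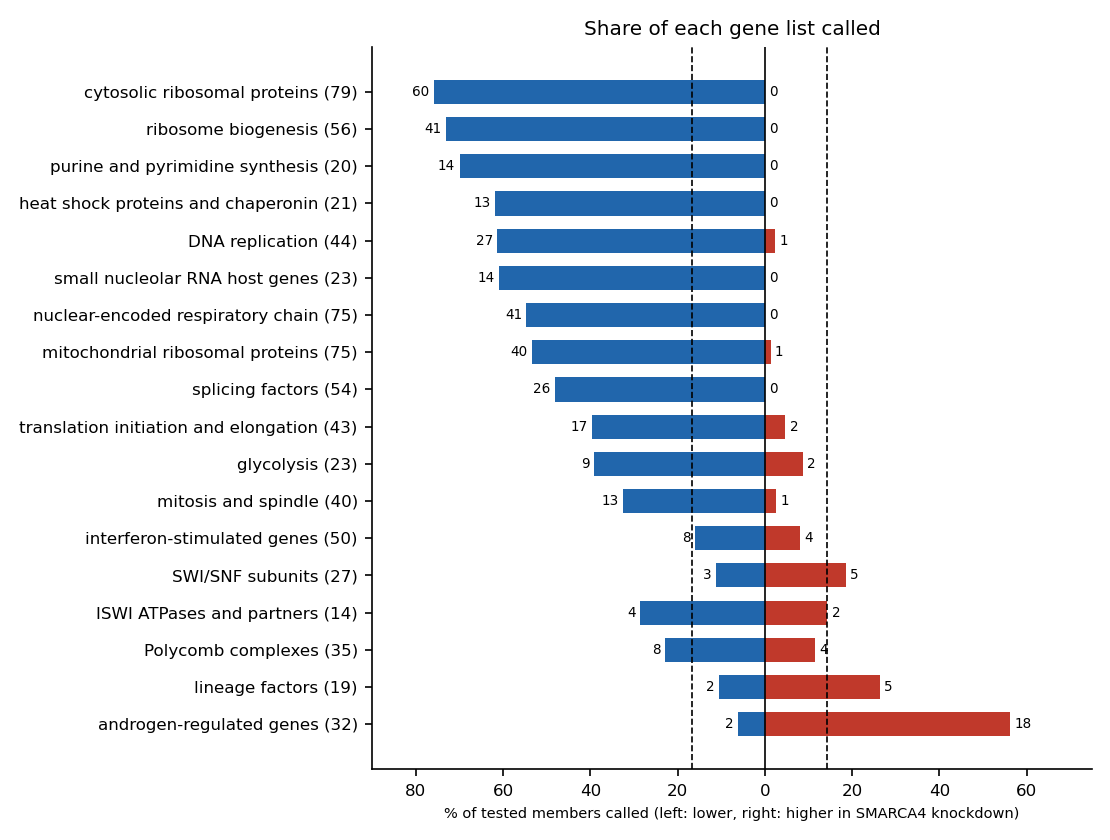
Share of the tested members of each gene list that were called lower (blue, left) or higher (red, right) in *SMARCA4* than in *SMARCA1* knockdown, with counts beside the bars, list sizes in brackets and dashed lines at the shares over all genes tested (16.8% and 14.3%). Of the lists drawn, cytosolic ribosomal proteins (60 of 79) reach furthest to the left and androgen-regulated genes (18 of 32) furthest to the right.

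Genes of DNA replication were lower in *SMARCA4* knockdown, and so were some mitotic genes. Of 44 replication genes, 27 were lower and 1 was higher (*PRIM2*), with a median log2 fold change of -0.34. These were shares of 61.4% and 2.27%, beside 16.8% and 14.3% of all genes. The summed level was 2720, 2709, 2643 and 2586 CPM in *SMARCA4* knockdown, 3707, 3618, 3304 and 3299 CPM in *SMARCA1* knockdown and 4163 and 4283 CPM in the controls, without overlap. *UHRF1*, which maintains DNA methylation behind the fork, was at 49.2, 47.4, 40.4 and 41.8 CPM against 86.1, 105, 80.2 and 79.8 CPM (log2 fold change -0.97, SE 0.08, adjusted p = 4.2e-04). *CDT1*, the licensing factor, was at 13.1, 13.1, 15.5 and 13.1 CPM against 30.7, 23.9, 23.5 and 22.05 CPM (log2 fold change -0.86, SE 0.11, adjusted p = 0.0014). The clamp *PCNA* (-0.69) and the helicase subunit *MCM3* (-0.72) fell likewise. The count of lower replication genes was 18 without S1-C2 or S4-B2, and 30 without either *SMARCA1* siRNA A replicate, and *PRIM2* (0.36) lost its call without any of 5 libraries (adjusted p up to 0.11).

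Of 40 mitotic genes, 13 were lower, among them the cyclin *CCNA2* (-0.79, SE 0.09, adjusted p = 8.0e-04) and *CKS2* (-0.55), and 1 was higher, the spindle factor *TPX2* (0.26), whose call was lost without S1-C1, S1-C2, S4-A2, S4-B1 and S4-B2 (adjusted p up to 0.15). The mitotic shares were 32.5% lower and 2.5% higher, beside 16.8% and 14.3% of all genes. With each pairing of siRNAs, 0 mitotic genes were called in edgeR's test (3 lower at an unadjusted p under 0.05) and 4 replication genes were called lower. The count of lower mitotic members was 5 without S1-C1, 5 without S1-C2, 5 without S4-B2, 7 without S4-A1 and 7 without S4-B1. *CDKN2A*, an inhibitor of the cell cycle, was at 2.996, 3.55, 3.93 and 3.23 CPM against 8.31, 7.03, 6.13 and 6.40 CPM (log2 fold change -1.01, SE 0.14, adjusted p = 0.0014). *CDKN1A*, the p53 target p21, was at 189, 115.8, 121 and 75.9 CPM against 254, 179.6, 254 and 265 CPM (log2 fold change -0.95, SE 0.20, adjusted p = 0.0091), and at 71.8 and 68.6 CPM in the controls. Both inhibitors were thus higher in *SMARCA1* knockdown, although *CDKN1A* overlapped at S4-A1.

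The p53 targets were called in both directions. Of 23 tested, 4 were higher in *SMARCA4* knockdown (*TP53INP1*, *BTG2*, *ZMAT3* and *SESN1*) and 8 lower, shares of 17.4% and 34.8% beside 14.3% and 16.8% of all genes. *TP53INP1*, a regulator of autophagy and apoptosis, was at 204, 246, 239 and 335 CPM against 76.1, 142, 111 and 111 CPM (log2 fold change 1.21, SE 0.19, adjusted p = 0.0029), and at 457 and 374 CPM in the controls. *BTG2*, an antiproliferative factor, was at 61.6, 53.2, 105 and 80.9 CPM against 34.98, 30.8, 41.97 and 40.7 CPM (log2 fold change 0.99, SE 0.11, adjusted p = 7.6e-04). Among the lower targets, *BBC3*, the apoptosis activator PUMA, was at 3.03, 1.54, 3.996 and 2.88 CPM against 6.87, 5.36, 7.41 and 10.5 CPM (log2 fold change -1.40, SE 0.23, adjusted p = 0.0034). *GDF15*, a stress cytokine, was at 82.8, 49.5, 149 and 55.9 CPM against 270.1, 117, 236 and 288 CPM (log2 fold change -1.45, SE 0.35, adjusted p = 0.016) and lost its call without S1-C2 and S4-A2 (adjusted p up to 0.061). The count of lower targets was 4 without S1-C2, 4 without S4-A2, 5 without S1-C1 and 5 without S4-B2, and that of higher targets 7 without S1-A2.

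Interferon-stimulated genes were high in both knockdowns and did not separate them as a group. The summed level of 50 such genes was 44156, 22752, 57225 and 50337 CPM in *SMARCA4* knockdown and 33319, 31900, 59081 and 59612 CPM in *SMARCA1* knockdown, and 806 and 802 CPM in the controls. The lowest knockdown library was S4-A2, and within *SMARCA1* knockdown the siRNA C libraries lay above the siRNA A libraries. Of the 50, 4 were higher, among them *STAT2*, *SP110* and *DTX3L*, and 8 lower, shares of 8% and 16% beside 14.3% and 16.8% of all genes. The lower count was 3 without S1-C1, 3 without S4-B2, 4 without S1-C2, 5 without S1-A1, 5 without S4-B1 and 26 without S4-A1. The higher count was 1 without S1-C1, 1 without S1-C2, 1 without S4-B2, 8 without S1-A2 and 14 without S4-A2.

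**Figure D5:**
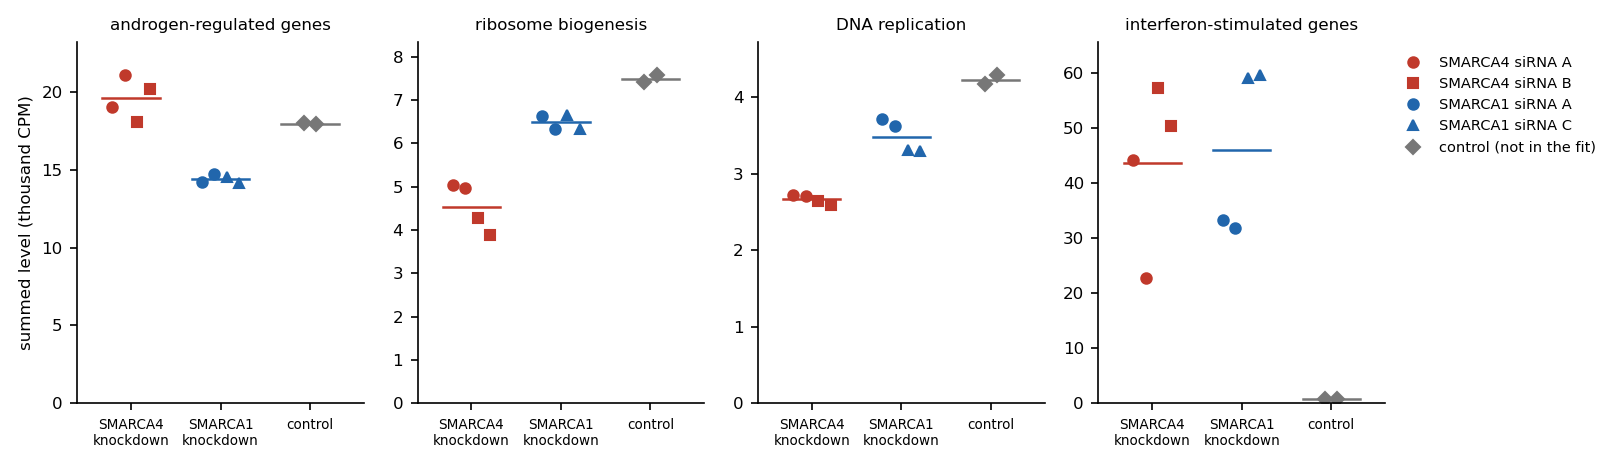
Summed CPM (axes from 0, as labelled) of the members of 4 gene lists in each library, with group means as lines. Androgen-regulated genes lie higher and ribosome biogenesis and DNA replication genes lower in each *SMARCA4* knockdown library than in any *SMARCA1* knockdown library, whereas interferon-stimulated genes overlap and lie at 802 and 806 CPM in the controls.

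Among the called members, the signalling factor *STAT2* was higher and *IFITM1* and *IFITM2* lower. With each pairing of siRNAs, 0 of the 50 were called in edgeR's test. *STAT2*, which carries the signal of interferon receptors to the nucleus, was at 485, 296, 539 and 627 CPM in *SMARCA4* knockdown and at 154, 165, 321 and 324 CPM in *SMARCA1* knockdown (log2 fold change 1.08, SE 0.15, adjusted p = 0.0015). The antiviral membrane protein *IFITM1* was at 109, 23.9, 373 and 187 CPM against 443, 241, 817 and 869.9 CPM (log2 fold change -1.98, SE 0.44, adjusted p = 0.011). *IFITM2* had a log2 fold change of -2.29, but of 0.0514 with *SMARCA4* siRNA B against *SMARCA1* siRNA A. Each of these 3 genes overlapped between the knockdowns, with S4-A2 the lowest *SMARCA4* library in each. The call of *DTX3L* was lost without S1-C1, S1-C2 and S4-B2 (adjusted p up to 0.066) and that of *SP110* without S1-C1, S1-C2 and S4-B2 (up to 0.083). No interferon gene was called among 6 tested (0 also at an unadjusted p under 0.05 and by DESeq2). Left-out libraries gave some: 1 was higher without S4-A2 and 2 lower without S4-A1.

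Of 16 sensors of double-stranded RNA and adaptors of RNA or DNA sensing, 3 were higher (*DDX58*, *TRIM25* and *TICAM1*) and 3 lower (*STING1*, *ZBP1* and *RNF135*), shares of 18.8% each beside 14.3% and 16.8% of all genes. The higher count was 0 without S1-C1, 0 without S1-C2, 0 without S4-A1, 0 without S4-B2 and 6 without S1-A2, and the lower count 1 without S1-C1, 1 without S1-C2 and 1 without S4-B2. *STING1*, the adaptor of cytosolic DNA sensing, was at 0.244, 0.126, 0.338 and 0.351 CPM (7, 4, 11 and 10 counts) in *SMARCA4* knockdown and at 1.04, 0.934, 1.02 and 1.02 CPM in *SMARCA1* knockdown (log2 fold change -1.98, SE 0.27, adjusted p = 0.0016), with 0.294 and 0.522 CPM in the controls. It alone of the 6 was called with each pairing of siRNAs, and it was singled out after its values were seen. *DDX58*, which encodes the sensor RIG-I, was at 17.8, 10.1, 18.2 and 20.5 CPM against 5.29, 9.26, 15.04 and 13.9 CPM (log2 fold change 0.68, SE 0.21, adjusted p = 0.038). The calls of *DDX58*, *TRIM25*, *TICAM1*, *ZBP1* and *RNF135* were each lost without some libraries (4 to 6 of the 8, both *SMARCA1* siRNA C replicates among them for each gene), with adjusted p up to 0.12, 0.073, 0.11, 0.10 and 0.15.

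Stress and signalling lists are set beside the 14.3% called higher and 16.8% called lower over all genes tested. Of 32 ATF4 targets, 12 were lower and 1 higher (*VLDLR*, whose call was lost without S1-C1, S1-C2, S4-A1, S4-B1 and S4-B2, adjusted p up to 0.088). The serine pathway enzyme *SHMT2* was at 145, 141, 142 and 115 CPM against 260.5, 193, 278 and 279 CPM (log2 fold change -0.89, SE 0.12, adjusted p = 0.0014). Of 24 AP-1 and immediate early factors, 1 was higher and 4 lower (median log2 fold change -0.25). The lower share of 16.7% was near that of all genes, and the higher share was 4.17%. The lower count was 0 without S4-B2, 1 without S1-C1, 1 without S1-C2, 1 without S4-A2, 2 without S1-A1 and 7 without S1-A2. *JUN*, a subunit of AP-1, was the higher member, at 164, 136, 134 and 133 CPM against 85.7, 79.7, 101 and 99.00 CPM (log2 fold change 0.64, SE 0.09, adjusted p = 0.0015). Lower members were the factors *KLF10* (-0.70) and *IER5* (-0.59). The call of *KLF10* was lost without S4-B2 (adjusted p = 0.059) and that of *IER5* without S1-A1, S1-C1, S1-C2, S4-A2, S4-B1 and S4-B2 (up to 0.12). The endoplasmic reticulum chaperone *DNAJC3* was higher (0.71). Among 17 YAP targets, 5 were higher (3 without S1-C1, 3 without S1-C2, 3 without S4-A1, 3 without S4-B1, 3 without S4-B2 and 8 without S1-A2) and 7 lower. Of the latter, *ANKRD1* was at 16.5, 6.80, 23.6 and 9.05 CPM against 45.8, 36.7, 54.6 and 53.6 CPM (log2 fold change -1.78, SE 0.33, adjusted p = 0.0052), with 1.93 and 2.61 CPM in the controls, and *FJX1* was at 9.16, 8.87, 6.15 and 3.51 CPM against 21.3, 18.97, 19.6 and 20.1 CPM (log2 fold change -1.59, SE 0.16, adjusted p = 6.1e-04). In glycolysis, 9 of 23 genes were lower and 2 higher (*ENO2* and *SLC2A3*). *SLC2A3* lost its call without S1-C1, S1-C2, S4-A1, S4-B1 and S4-B2 (adjusted p up to 0.14). *LDHA*, lactate dehydrogenase A, was at 270.1, 176, 288 and 237 CPM against 421, 387, 484 and 464 CPM and 865 and 709.6 CPM in the controls (log2 fold change -0.86, SE 0.14, adjusted p = 0.0030), with *LDHB* lower as well (-0.79). The ATF4 count was 7 without S1-C1, 7 without S1-C2 and 7 without S4-A2, and the glycolysis count was 4 without S1-C1, 4 without S4-B2, 5 without S1-C2 and 5 without S4-A2.

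Matrix and integrin genes were called in shares near those of all genes, and single members are given here. *THBS1*, the matrix glycoprotein thrombospondin 1, was at 1821, 1929, 1343 and 1192 CPM in *SMARCA4* knockdown and at 510.2, 851, 668 and 716 CPM in *SMARCA1* knockdown (log2 fold change 1.17, SE 0.15, adjusted p = 0.0011). The controls had 739 and 738 CPM, close to *SMARCA1* knockdown. *FN1*, fibronectin (0.92), and *COL9A2*, a fibril-associated collagen (1.15), were higher, while *LAMA1*, a laminin chain (-1.76), and *LOX*, the collagen crosslinking oxidase (-1.001), were lower. Of 40 matrix and integrin genes, 8 were higher (5 without S1-C1 and 13 without S1-A2) and 6 lower, shares of 20% and 15% beside 14.3% and 16.8% of all genes. *CLDN8*, a tight junction claudin, was at 54.6, 56.3, 48.4 and 47.3 CPM against 24.5, 25.1, 23.3 and 23.4 CPM (log2 fold change 1.10, SE 0.08, adjusted p = 1.8e-04), near its 49.6 and 43.7 CPM in the controls. *KRT7* (-1.95) and the carcinoembryonic antigen *CEACAM5* (-2.18) were lower, and *CEACAM5* lost its call without S1-C1 (adjusted p = 0.052). *KRT7* was low in *SMARCA4* knockdown, at 2.98 CPM in S4-B1 and 0.523 to 0.596 CPM in the others. Of 37 epithelial genes, 5 were higher and 7 lower (13.5% and 18.9%), with 3 to 11 higher and 3 to 12 lower when a library was left out. Of 21 mesenchymal genes, 3 were higher and 6 lower (14.3% and 28.6%).

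*VIM*, the mesenchymal filament vimentin, was at 0, 0.440, 1.72 and 1.82 CPM in *SMARCA4* knockdown and at 0.0360, 0, 0.0958 and 0 CPM in *SMARCA1* knockdown (0, 14, 56 and 52 against 1, 0, 3 and 0 counts), with 3.45 and 3.36 CPM in the controls. The siRNA B libraries were highest, S4-A1 overlapped with *SMARCA1* knockdown, and without S4-A2 the adjusted p was 0.93. *CHGB*, the secretory granule protein chromogranin B, was at 67.02, 82.99, 70.7 and 77.9 CPM against 32.5, 29.3, 32.2 and 31.00 CPM (log2 fold change 1.26, SE 0.10, adjusted p = 3.2e-04), and the synaptic *SNAP25* had a log2 fold change of 1.06. In *CHGB* the *SMARCA1* knockdown libraries lay close to the controls (34.6 and 37.7 CPM), and the neuroendocrine list gave 4 of 24 higher and 4 lower, shares of 16.7% each beside 14.3% and 16.8% of all genes. Lower members were *UCHL1*, a neuronal deubiquitinase (-0.72), and *SEZ6*, a neuronal membrane protein (-0.58). Neither lost its call with a library left out.

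Of 18 tested metallothioneins and zinc transporters, which handle the zinc that prostate epithelium accumulates, 4 were higher and 4 lower, shares of 22.2% each beside 14.3% and 16.8% of all genes. *SLC30A4*, a zinc exporter, was at 50.5, 67.8, 46.1 and 67.8 CPM against 16.9, 28.7, 20.9 and 19.9 CPM (log2 fold change 1.44, SE 0.19, adjusted p = 0.0014), with 95.8 and 79.4 CPM in the controls. The importer *SLC39A10* was higher as well (1.48). In contrast, the importer *SLC39A8* was at 6.62, 6.01, 6.27 and 4.35 CPM against 13.6, 14.8, 15.7 and 15.3 CPM (log2 fold change -1.35, SE 0.13, adjusted p = 5.2e-04), and the metallothionein *MT1X* had a log2 fold change of -1.29.

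Among 35 tested genes of Polycomb complexes, 4 were higher and 8 lower, shares of 11.4% and 22.9% beside 14.3% and 16.8% of all genes. The higher count was 2 without S1-C1 and 10 without S1-A2, and the lower count 4 without S1-C1, 4 without S1-C2, 4 without S4-B2, 5 without S4-A1, 5 without S4-A2 and 5 without S4-B1. *CBX2*, a chromodomain subunit of Polycomb repressive complex 1, was at 25.9, 28.7, 21.6 and 19.8 CPM against 58.1, 60.2, 50.97 and 52.00 CPM (log2 fold change -1.21, SE 0.08, adjusted p = 1.8e-04), below its 49.7 and 54.2 CPM in the controls in *SMARCA4* knockdown. *BMI1*, another subunit of that complex, was at 30.3, 33.6, 28.6 and 29.2 CPM against 16.6, 19.9, 19.5 and 18.5 CPM (log2 fold change 0.71, SE 0.09, adjusted p = 0.0013), and its level in *SMARCA1* knockdown was below the 41.2 and 32.02 CPM of the controls. The methyltransferase *EZH2* (-0.63) and its partner *PHF19* (-0.68) were lower. *TET1*, a demethylating dioxygenase, was at 19.6, 19.9, 16.6 and 18.8 CPM against 3.13, 11.1, 7.86 and 6.73 CPM (log2 fold change 1.39, SE 0.30, adjusted p = 0.010). *TET2* (0.91) and *DNMT3B* (0.42) were called higher, *TET2* with its call lost without any of 6 libraries (the siRNA C replicates of *SMARCA1* and the 4 *SMARCA4* libraries, adjusted p up to 0.12) and *DNMT3B* without S1-C1, S1-C2, S4-A2 and S4-B1 (up to 0.087). The heterochromatin protein *CBX3* was lower (-0.47).

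Of 39 tested WNT and Notch genes, 7 were higher and 6 lower, shares of 17.9% and 15.4% beside 14.3% and 16.8% of all genes. The higher count was 4 without S1-C1, 4 without S1-C2, 4 without S4-A1, 4 without S4-B2 and 12 without S1-A2, and the lower count 3 without S1-C1, 3 without S1-C2 and 3 without S4-B2. *WNT7B* was at 12.5, 11.2, 7.90 and 5.96 CPM against 22.2, 18.6, 18.8 and 19.3 CPM (log2 fold change -1.12, SE 0.12, adjusted p = 7.5e-04), and the Notch ligand *JAG2* at 17.9, 22.5, 16.6 and 18.5 CPM against 35.8, 31.5, 31.5 and 30.6 CPM (log2 fold change -0.78, SE 0.11, adjusted p = 0.0016). In contrast, *WNT4* was higher (1.26). Of 20 fatty acid genes, 4 (20%) were lower and 0 higher in edgeR's test (1 at an unadjusted p under 0.05 and 0 by DESeq2), and of 25 cholesterol genes 8 (32%) were lower and 3 (12%) higher, beside 16.8% and 14.3% of all genes. The lower cholesterol count was 1 without S4-B2, 2 without S1-C1, 3 without S1-C2 and 4 without S4-A1, and the higher count 1 without S1-C1 and 1 without S1-C2. *ELOVL2*, an elongase of polyunsaturated fatty acids, was at 169.7, 178, 109 and 100.4 CPM against 214, 303, 267 and 279 CPM (log2 fold change -0.97, SE 0.11, adjusted p = 8.1e-04), and the desaturase *FADS2* was lower as well (-0.68), whereas *SC5D*, a sterol desaturase, was higher (0.79).

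Of 1012 lncRNA genes tested, 106 were higher and 112 lower, shares of 10.5% and 11.1% beside 14.3% and 16.8% of all genes. *LINC00662* was at 72.04, 104, 85.6 and 101 CPM in *SMARCA4* knockdown and at 25.5, 24.8, 23.6 and 23.9 CPM in *SMARCA1* knockdown (log2 fold change 1.89, SE 0.13, adjusted p = 1.8e-04). The controls, at 130.3 and 114 CPM, lay above both. *CTC-459F4.1* had the same arrangement, at 7.87, 13.2, 10.5 and 19.6 CPM against 3.13, 3.21, 2.20 and 2.30 CPM (log2 fold change 2.24, SE 0.25, adjusted p = 7.6e-04). The pseudogenes *ROCK1P1* (1.82) and *RASA4CP* (1.30) were higher, and their reads may be shared with the parent genes. On the other side, *LINC01687* (-2.12), *RP11-627H22.12* (-1.48) and *RP11-33A14.1* (-1.41) were lower.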

How the data were processed

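Poly(A) RNA of VCaP cells was sequenced from stranded libraries, and the authors aligned reads to GRCh38 with HISAT2 2.1.0 and deposited whole-number counts per gene made with featureCounts 1.5.2 on GENCODE genes, unnormalized (versions per the submitters' processing notes). Each of the 10 deposited files held 59386 genes. The GENCODE release behind these counts is not given in the sources used here. Symbols were matched to GENCODE v44 for position, exon length and biotype, 39004 as they stand and 388 through an older symbol. The study's own comparisons and peak or binding data were not used here.

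The 8 knockdown libraries entered a single fit as 4 siRNA groups without covariates in edgeR 4.0.16 (R 4.3.3): genes kept by filterByExpr (minimum count 10, minimum total 15), TMM factors, glmQLFit and glmQLFTest on the mean of the *SMARCA4* siRNA groups minus the mean of the *SMARCA1* siRNA groups. Genes with a Benjamini-Hochberg adjusted p below 0.05 over all 16786 genes tested were called. The step was tested on simulated data. Alternatives were other normalizations, filters and groupings, DESeq2 1.42.0, single siRNAs, each library left out, and, added after seeing the data, removal of trends with exon length or GC content.

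The gene lists, the markers and the libraries compared were chosen with earlier results of these data known, and no list was tested as a set. Genes were named by rule: the ATPases *SMARCA4*, *SMARCA1*, *SMARCA2* and *SMARCA5*, the 12 highest and the 12 lowest log2 fold changes of protein-coding genes at a mean of 1 CPM or more called in all 4 siRNA pairings, 4 and 4 among other genes, up to 2 rises and 2 falls per list, and any SWI/SNF, ISWI or MYC network gene. Named beyond the rule, with their values seen, were *FOXA1*, *SPDEF*, *GATA2*, *KLK3*, *TMPRSS2*, *STEAP1*, *C4A*, *EBNA1BP2*, *NCL*, *PCNA*, *MCM3*, *EZH2*, *STING1*, *TICAM1*, *SP110*, *ZMAT3*, *SESN1*, *DNMT3B*, *CBX3* and *VIM*. CPM are TMM-scaled, and at total counts of 24396501 to 34667965 per library 3 counts correspond to 0.0865 to 0.123 CPM. siRNA sequences come from the study's supplementary table and promoters from RefSeq (GRCh38.p14). Some genes are not reported here by name.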

Additional observations from a re-analysis of the deposited data

Results flagged for a closer look

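Over the named genes and list sums, in 15 of 340 groups of 4 libraries, 1 library lay far from the other 3 by Dixon's ratio, about the 1 in 20 that chance gives. In *SMARCA1* knockdown, S1-A1 was lowest for *BAZ2B* (28.4 CPM against 39.0 to 39.3 in the others) and *EHF* (271.6 against 406.9 to 420.2) and highest for *SEMG2* (3.71 against 2.32 to 2.49) and *RP11-627H22.12* (10.4 against 8.50 to 8.77). S1-A2 was lowest for *CDKN1A* (179.6 against 254.0 to 264.8) and *SPDEF* (365.6 against 499.2 to 517.7) and highest for *LINC01687* (4.75 against 2.30 to 2.59). S1-C2 was highest for *BICRA* (48.2 against 42.1 to 42.8). In *SMARCA4* knockdown, S4-A1 was highest for *JUN* (163.7 CPM against 132.9 to 136.2). S4-A2 was highest for *GATA2* (746.8 against 557.6 to 589.8). S4-B1 was highest for *CDT1* (15.5 against 13.1) and for *KRT7* (2.98 against 0.523 to 0.596), and lowest for *TET2* (56.5 against 71.7 to 73.5). S4-B2 was lowest for *SNHG15* (17.5 against 20.9 to 21.5) and *SHMT2* (114.5 against 141.0 to 145.4). *KRT7* in S4-B1 still lay below the mean of *SMARCA1* knockdown.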

How the results depend on the processing

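*SMARCA4* and *SMARCA1* mRNA kept direction and call under every alternative run. The 5219 genes called became 565 against a fold of 1.5, 2604 without *SMARCA1* siRNA C, 3250 without *SMARCA4* siRNA B, and 2783, 2997 and 2177 in the pairings of *SMARCA4* siRNA A with *SMARCA1* siRNA A, of A with C and of B with C. Leaving out 1 library gave 2412 to 7630. With library totals alone 49.7% of calls were higher, against 46.0% with TMM. With the libraries as 2 groups of 4, the difference between siRNAs entered the spread, and 3503 of 15852 genes tested were called. Of 158 named genes other than the targets, 25 lost their call in that fit. The replicate block gave 5906. The replicate differences of *SMARCA1* siRNA A and both *SMARCA4* siRNAs correlated at 0.128 to 0.361, and those of *SMARCA1* siRNA C with the others at -0.00392 to 0.0561. The main fit left the block out by plan, and whether the numbers mark shared batches was not tested. The block ended the call of *EIF3H* (adjusted p 0.051).

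Of 160 named genes called, 123 were called with each library left out. Directions turned with *SMARCA4* siRNA A against *SMARCA1* siRNA C for *DDX58* (-0.0473), *TICAM1* (-0.0562), *SP110* (-0.0627) and *SLC2A3* (-0.35), with B against A for *BAZ1A* (0.15), *IFITM2* (0.0514), *ZBP1* (0.28) and *TPX2* (-0.0796), and without *SMARCA4* siRNA B for *SLC2A3* (-0.13). Not called in the comparison, *SMARCA5* was at -0.00706 without *SMARCA1* siRNA A, -0.00234 without *SMARCA4* siRNA B and -0.19 in A against C. The causes were not tested.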

Other observations

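Surface antigens and apoptosis genes were compared with the 14.3% called higher and 16.8% called lower over all genes tested. Prostate surface antigens gave 9 lower and 4 higher of 23, with 5 without S1-C1, 5 without S1-C2 and 5 without S4-B2. The BCL2 family and caspases gave 8 lower and 2 higher of 30, with 3 without S4-B2, 4 without S1-C1, 5 without S1-C2 and 5 without S4-A2.

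In both lists each lower count shown fell without S1-C1, S1-C2 or S4-B2, and the total over all genes was likewise lowest without S1-C1 (2412). The replicates of *SMARCA1* siRNA C had the smallest spread within a siRNA, and its part in the number of calls was not tested.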
